A study of Mus musculus with 34 samples.

Results

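Interferon-stimulated genes are the genes that cells switch on after an interferon binds its receptor. A list of 40 of them, taken by symbol, was followed through the libraries of this series, and all 40 had a row among the 27179 gene identifiers of the count tables. The list holds 4 transcription factors, 7 sensors of viral or displaced nucleic acid, 8 antiviral effectors, 8 genes of ISG15, ubiquitin and ADP-ribose modification, 6 interferon-inducible GTPases and 7 other induced genes.

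Naive CD4 T cells were taken from C57BL/6 mice, kept in vitro for 3.5 days with anti-CD3 and anti-CD28 bound to the plate, then sorted, and the series title concerns TGF-β, c-Maf and the follicular helper and TH17 fates. From 50 ng of total RNA per library, a 3′ kit read a tag near the end of each transcript, so that counts do not scale with transcript length. The groups carried 3 culture codes and 4 label numbers: Tfh2_1e4 (6 libraries), Tfh2_2e4 (5), Tfh2_4e4 (6), Tfh2_6e4 (6), Tfh5_4e4 (6) and TfhA_4e4 (5), 34 libraries in 6 groups. The labels do not say what the codes stand for, which cytokines or antibodies each culture received, what the number counts, or whether same-coded libraries came from separate cultures or mice, so the p-values measure only the spread between these libraries.

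Type I interferons signal through IFNAR1 and IFNAR2 to the kinases JAK1 and TYK2, which activate signal factors that include STAT2. STAT2 and IRF9 take part in the complex ISGF3, which binds the interferon-stimulated response element (ISRE) in promoters. Interferon-γ signals through IFNGR1 and IFNGR2, JAK1 and JAK2, and its promoter element is the gamma-activated site (GAS). T cells carry both receptors, and many of the listed genes are known to answer to both signals.

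Promoter sequence was looked up in RefSeq for the 250 bases before each transcription start (assembly GRCm38.p6, the same genome as the mm10 build named in the submitters' processing notes), and 32 of the 40 genes had an entry. The ISRE was searched as TTTCNNTTTC and its reverse GAAANNGAAA, on both strands, with overlapping matches counted. It stood in 15 of the 32 genes (46.9%) and in 3.46% of the 27025 genes with a promoter entry. A GAS, searched as TTCNNNGAA, stood in 25% of the 32 genes and in 8.13% of all genes. These are letter matches in a window, not measured binding sites. The 5 sequences below are shown because they belong to genes whose levels moved in different directions: Isg15, Trim30a, Trim30d and Gbp7 were higher in TfhA_4e4, and Gbp2 was lower there. Each is the 150 bases that end just before the start, written 5′ to 3′ along the gene, with the ISRE in capitals.
Isg15: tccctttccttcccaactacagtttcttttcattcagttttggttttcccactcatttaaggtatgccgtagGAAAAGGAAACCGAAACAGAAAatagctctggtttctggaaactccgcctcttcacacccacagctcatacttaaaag
Trim30a: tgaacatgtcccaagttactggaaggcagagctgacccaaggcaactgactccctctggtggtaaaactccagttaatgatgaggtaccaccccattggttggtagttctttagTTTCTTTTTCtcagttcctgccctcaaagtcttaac
Trim30d: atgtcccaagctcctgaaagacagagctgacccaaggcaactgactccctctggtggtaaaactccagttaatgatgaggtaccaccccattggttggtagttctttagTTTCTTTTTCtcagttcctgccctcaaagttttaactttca
Gbp7: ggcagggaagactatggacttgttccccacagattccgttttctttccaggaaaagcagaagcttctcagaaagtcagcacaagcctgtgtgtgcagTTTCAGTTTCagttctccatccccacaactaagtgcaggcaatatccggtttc
Gbp2: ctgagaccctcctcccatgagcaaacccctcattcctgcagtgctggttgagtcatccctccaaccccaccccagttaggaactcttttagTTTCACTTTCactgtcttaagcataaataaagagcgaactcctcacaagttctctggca
The Isg15 stretch was chr4:156200819-156200968 on the minus strand and held 3 overlapping matches, beginning 78, 72 and 66 bases before the start. Trim30a (chr7:104465194-104465343, minus strand) and Trim30d (chr7:104507850-104507999, minus strand) are nearby members of 1 gene family, and their 250-base windows shared an identical run of 118 bases that includes the match. For Trim30a a second start, with no match in its window, is also annotated. The Gbp7 stretch (chr3:142530186-142530335, plus strand) and the Gbp2 stretch (chr3:142620513-142620662, plus strand) carried the match 53 and 59 bases before the start. So the same letters stood in front of genes that were higher and of a gene that was lower in TfhA_4e4. Among genes with a promoter entry, an ISRE was found in 7 of 14 that rose, 1 of 3 that fell and 3 of 8 that missed the threshold in TfhA_4e4 against Tfh2_4e4.

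Library totals ran from 4481509 to 9934245 counts. The 8 CD4 T cell markers on the marker list were all detected, and their summed level in CPM, the counts scaled to a library of 1e6, was 1599 to 1689 in TfhA_4e4, 1903 to 2204 in Tfh2_4e4 and 1851 to 2123 in Tfh5_4e4. TfhA_4e4 lay below both without overlap, and the other groups ran from 1580 to 2251 CPM. B cell markers summed to at most 1.52 CPM. Mitochondrial ribosomal RNA took 12.6 to 17.3% of the counts of TfhA_4e4 libraries, leaving out 2 very large identifiers without a gene symbol, and 5.78 to 11.5% in the other groups, with no overlap. Its part in the results below was not tested beyond the fit with this share as a covariate. Single genes were read in that fit only for the list of interferon-stimulated genes, and their lost calls are named where they fall. Of the other libraries, Tfh2_4e4 replicate 3 and Tfh2_2e4 replicate 6 stood apart. For 37 genes outside the list with at least 10 CPM in TfhA_4e4 and a mean at least 16-fold higher there than in Tfh5_4e4, the median level was 21.2% of the TfhA_4e4 mean in the first library and 14.0% in the second. It was at most 3.39% in every other library outside TfhA_4e4. Results for genes of the list that rest on these libraries are given with and without them.

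**Figure D1:**
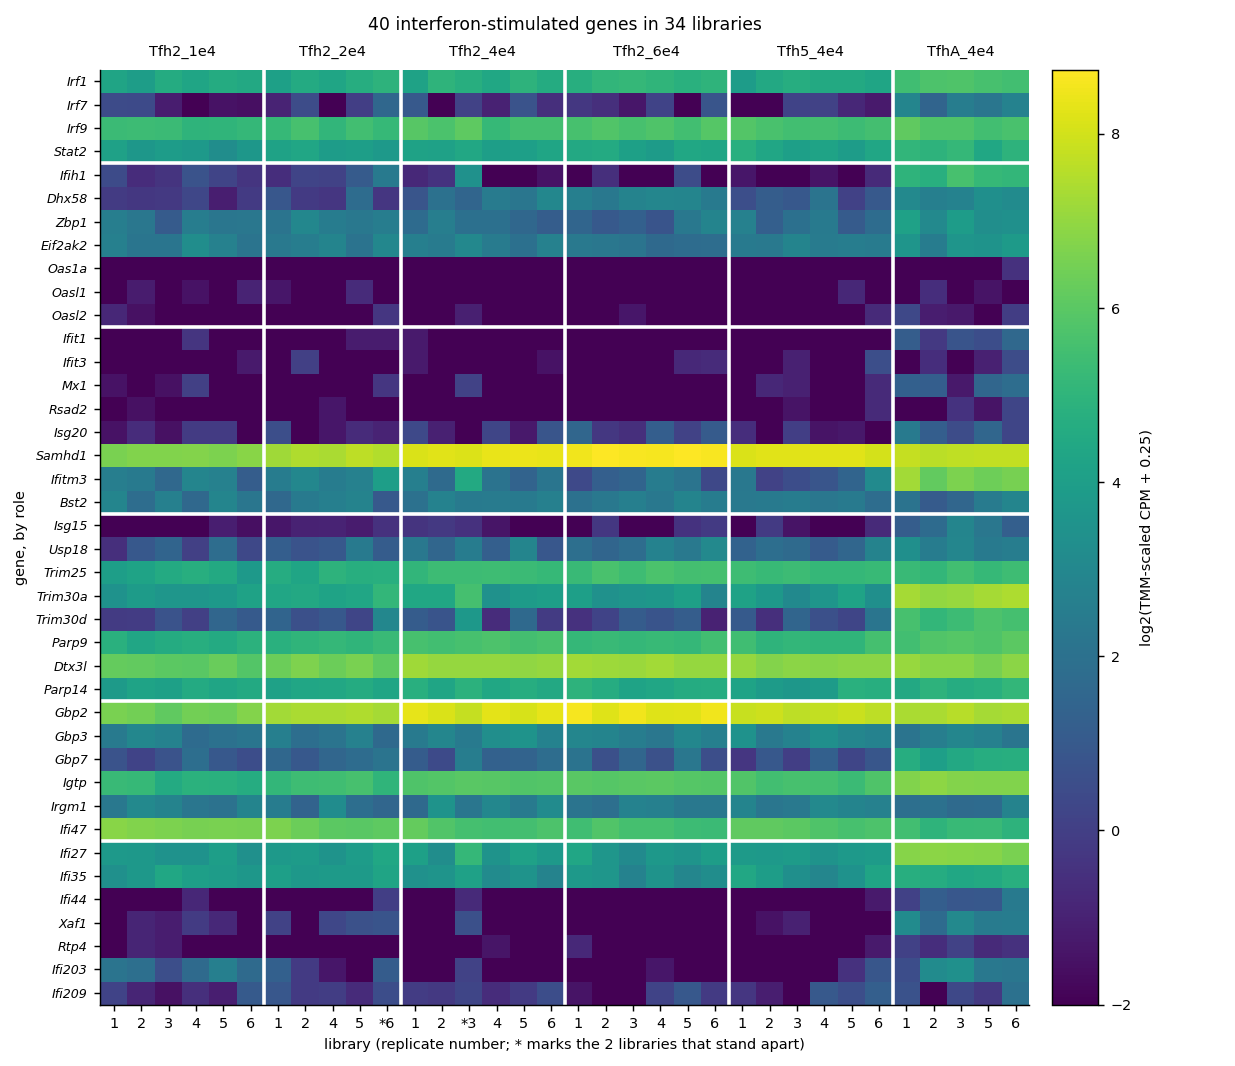
Levels of the 40 interferon-stimulated genes (rows, by role) in the 34 libraries (columns, by group), as log2 of the CPM scaled by trimmed mean of M-values (TMM) plus 0.25; a count of 0 sits at -2. The TfhA_4e4 columns are brighter for genes such as Ifih1, Ifitm3, Trim30d and Gbp7, and the asterisks mark Tfh2_4e4 replicate 3 and Tfh2_2e4 replicate 6.

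The first comparison set the TfhA code against the Tfh2 and Tfh5 codes at the shared label number 4e4. Most interferon-stimulated genes that passed the test were higher in TfhA_4e4. Among them were the membrane protein Ifitm3, the Trim30 ubiquitin ligases, the GTPase Gbp7 and Ifi27. A smaller number were lower, among them the abundant genes Samhd1 and Gbp2. Of the 40 genes, 31 had enough counts to be tested by edgeR's quasi-likelihood test with Benjamini-Hochberg adjustment over 11357 genes (adjusted p under 0.05), and 9 did not. Against Tfh2_4e4, 16 of the 31 were higher and 3 lower, where 15.5% of all genes tested were higher and 17.4% lower (32.8% in either direction). Their median log2 fold change was 0.90, and that of all genes tested was -0.01. Against Tfh5_4e4, 21 were higher and 3 lower, where 19.1% of all genes were higher and 20.4% lower (39.5% in either direction), with a median of 1.01 beside 0.00 for all genes. Both comparisons use the same TfhA_4e4 libraries. The 40 genes were chosen with earlier results of these data known, so these counts are no independent test.

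Irf7, Ifih1, Isg15 and Xaf1 passed the filter on low counts only through TfhA_4e4 libraries, so they had to be high there to be tested. Without these 4, 12 of 27 genes were higher and 3 lower against Tfh2_4e4 (median 0.78), and 17 of 27 were higher and 3 lower against Tfh5_4e4 (median 0.79). Of the 19 genes called against Tfh2_4e4, 17 had no overlap between the libraries of the groups, as did 57.5% of the 3729 genes called among all tested. Against Tfh5_4e4 it was 17 of 24, beside 62.7% of the 4489 genes called. Both counts of 17 include Irf7, Ifih1, Isg15 and Xaf1, which had to be high in TfhA_4e4 to be tested. As the RNA came from bulk cells, a larger share of expressing cells and more RNA per cell cannot be told apart. Leaving out each library of these comparisons in turn gave 16 to 18 higher and 3 to 4 lower against Tfh2_4e4, and 20 to 21 higher and 3 to 4 lower against Tfh5_4e4. With the mitochondrial RNA share as a covariate it was 14 higher and 2 lower against Tfh2_4e4, and 14 higher and 3 lower against Tfh5_4e4. The 3 lower against Tfh5_4e4 were then not the same 3 genes, since Ifi47 lost its call.

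**Figure D2:**
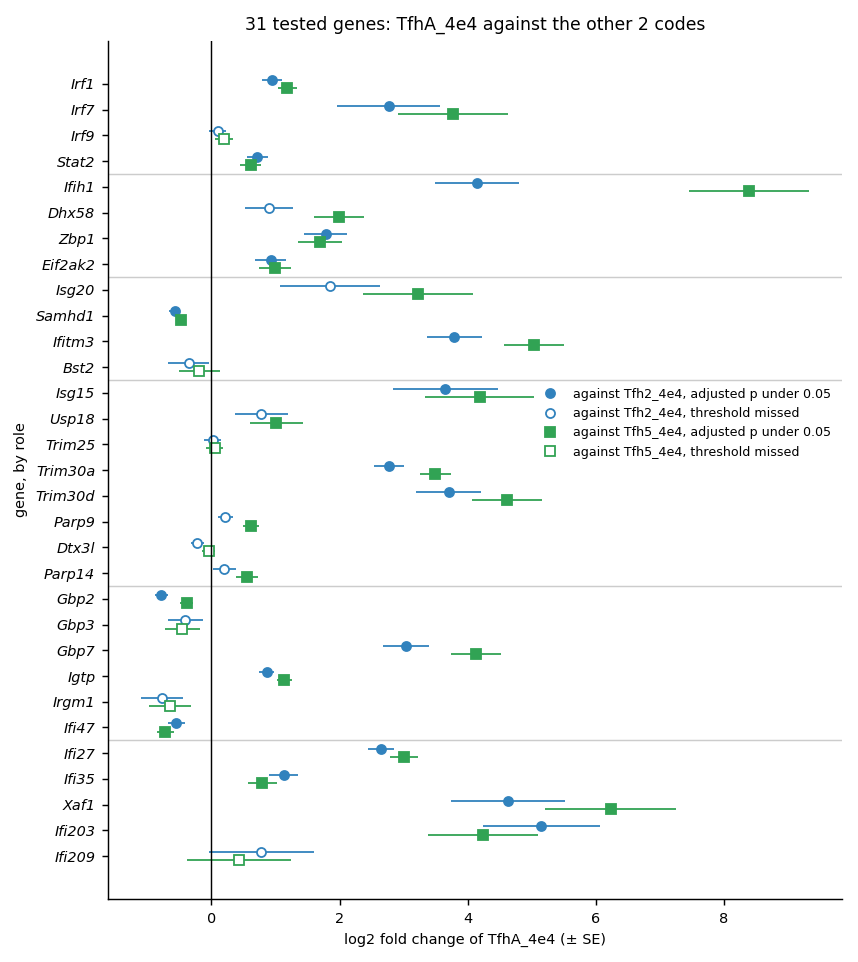
Log2 fold change with its standard error for the 31 tested genes, TfhA_4e4 against Tfh2_4e4 (circles) and against Tfh5_4e4 (squares); filled symbols had an adjusted p under 0.05. Most filled symbols lie to the right of 0, and Samhd1, Gbp2 and Ifi47 lie to the left in both comparisons.

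Among the 4 transcription factors, Irf1, Irf7 and Stat2 rose in TfhA_4e4 in both comparisons, and Irf9 passed the threshold in neither. Irf7 had to be high in TfhA_4e4 to be tested. IRF1 is itself induced by interferon-γ and drives a secondary wave of induced genes. Irf1 was at 42.7, 53.6, 54.3, 49.0 and 44.4 CPM in TfhA_4e4, 18.1, 25.2 and 31.6 CPM (lowest, median and highest) in Tfh2_4e4, and 15.0, 22.5 and 25.9 CPM in Tfh5_4e4. The TfhA_4e4 libraries lay above all others of these groups, with a log2 fold change of 0.95 ± 0.15 (SE, adjusted p = 1.8e-06) against Tfh2_4e4 and 1.19 ± 0.15 (adjusted p = 1.21e-08) against Tfh5_4e4. IRF7 amplifies type I interferon production. Irf7 stood at 7.16, 2.48, 5.63, 4.43 and 6.58 CPM in TfhA_4e4 and at no more than 1.73 CPM in Tfh2_4e4 and 0.854 CPM in Tfh5_4e4. Its log2 fold changes were 2.77 ± 0.80 (adjusted p = 0.00603) and 3.77 ± 0.86 (adjusted p = 0.000372). With the mitochondrial RNA share as a covariate both calls were lost, at 1.46 (adjusted p = 0.415) and 2.31 (adjusted p = 0.183).

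STAT2, a subunit of ISGF3, changed less. Stat2 levels were 33.0, 30.2, 35.4, 21.1 and 30.3 CPM in TfhA_4e4, 16.1 to 21.4 CPM (median 17.9) in Tfh2_4e4 and 15.2 to 27.2 CPM (median 19.4) in Tfh5_4e4. Replicate 5 of TfhA_4e4 fell inside the range of both other groups, and the log2 fold changes were 0.71 ± 0.16 (adjusted p = 0.000529) and 0.61 ± 0.16 (adjusted p = 0.00228). The gene body overlaps that of Apof. Irf9, the DNA-binding subunit of ISGF3, averaged 54.7 ± 9.52 CPM (SD, n = 5) in TfhA_4e4 and 51.0 ± 10.9 CPM (n = 6) in Tfh2_4e4, a log2 difference of 0.10.

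Of the 7 sensor genes 4 were tested, and 3 rose against Tfh2_4e4 and 4 against Tfh5_4e4. Both counts include Ifih1, which had to be high in TfhA_4e4 to be tested. Ifih1 (chr2:62595618-62646255) encodes MDA5, which recognises long double-stranded RNA. Its level was 31.2, 27.1, 48.4, 36.6 and 33.8 CPM in TfhA_4e4. In Tfh5_4e4 it ran from 0 to 0.354 CPM, and in Tfh2_4e4 from 0 to 10.4 CPM with a median of 0.228 CPM. The groups did not overlap, and the 10.4 CPM was Tfh2_4e4 replicate 3, at 29.4% of the TfhA_4e4 mean. The log2 fold change against Tfh2_4e4 was 4.15 ± 0.65 (adjusted p = 1.49e-06), and without that library it was 7.42 (adjusted p = 4.77e-13). The 1030 counts in TfhA_4e4 then stood against 7, a ratio of 190 with a 95% counting interval of 92.1 to 475. Against Tfh5_4e4, with 4 counts in all, the fitted log2 fold change was 8.39 ± 0.94 (adjusted p = 4.82e-10), and 9.05 without Tfh5_4e4 replicate 6.

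Zbp1, a sensor of Z-form nucleic acid that can start necroptosis, was at 17.5, 8.08, 14.9, 9.70 and 10.1 CPM in TfhA_4e4, above the 1.97 to 5.73 CPM of Tfh2_4e4 and the 1.90 to 6.31 CPM of Tfh5_4e4. The log2 fold changes were 1.78 ± 0.34 (adjusted p = 4.21e-05) and 1.70 ± 0.34 (adjusted p = 6.54e-05), the second with an adjusted p of 0.0548 when the mitochondrial share was a covariate. Eif2ak2 encodes PKR, the kinase that halts translation on double-stranded RNA. It reached 11.7, 5.38, 11.8, 11.3 and 14.3 CPM in TfhA_4e4, against 3.70, 5.66 and 7.73 CPM in Tfh2_4e4 and 4.77, 5.30 and 6.95 CPM in Tfh5_4e4. TfhA_4e4 replicate 2 lay within the other groups' ranges, and both calls, 0.92 ± 0.25 (adjusted p = 0.00283) and 0.99 ± 0.25 (adjusted p = 0.00112), were lost with the covariate, at adjusted p of 0.228 and 0.172. Dhx58, which encodes the sensor LGP2, measured 8.15, 6.01, 6.63, 9.82 and 8.93 CPM in TfhA_4e4, 1.56 to 7.67 CPM in Tfh2_4e4 and 0.791 to 4.11 CPM in Tfh5_4e4. It rose against Tfh5_4e4 (2.00 ± 0.39, adjusted p = 4.43e-05) and missed the threshold against Tfh2_4e4 (0.90 ± 0.37, adjusted p = 0.0571), where DESeq2 gave 0.93 (adjusted p = 0.0343). The oligoadenylate synthetases Oas1a, Oasl1 and Oasl2 had 2, 3 and 10 counts in all TfhA_4e4 libraries together and were not tested.

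Of the 8 antiviral effectors 4 were tested, and they went in both directions. Ifitm3 (chr7:141009590-141010744), whose product blocks virus fusion in endosomal membranes, was at 150, 71.9, 98.7, 83.3 and 93.5 CPM in TfhA_4e4. It ran from 2.42 to 22.6 CPM (median 4.12) in Tfh2_4e4 and from 0.848 to 8.66 CPM (median 2.03) in Tfh5_4e4. No libraries overlapped, and the log2 fold changes were 3.79 ± 0.43 (adjusted p = 8.08e-10) and 5.03 ± 0.47 (adjusted p = 2.96e-12). Replicate 3 of Tfh2_4e4 held the 22.6 CPM, and without it the group averaged 3.95 CPM and the log2 fold change was 4.65. Samhd1, a dNTP hydrolase that restricts reverse transcription, was among the most abundant of the 40 genes by tag count and fell. It was at 221, 200, 212, 214 and 214 CPM in TfhA_4e4, 281, 321 and 345 CPM in Tfh2_4e4, and 265, 303 and 308 CPM in Tfh5_4e4, with no overlap. Its log2 fold changes were -0.57 ± 0.08 (adjusted p = 3.1e-07) and -0.47 ± 0.08 (adjusted p = 8.34e-06).

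Isg20, an exonuclease that degrades RNA, was at 5.17, 2.07, 1.16, 2.63 and 0.940 CPM in TfhA_4e4 and at most 1.53 CPM in Tfh2_4e4 and 0.732 CPM in Tfh5_4e4. It rose against Tfh5_4e4 (3.22 ± 0.86, adjusted p = 0.00214; 3.97 without Tfh5_4e4 replicate 3; adjusted p = 0.0523 with the mitochondrial covariate). Against Tfh2_4e4 the value was 1.85 ± 0.78 (adjusted p = 0.0623), and DESeq2 gave an adjusted p of 0.0452. Bst2, the virus tether tetherin, averaged 4.16 ± 2.07 CPM (SD, n = 5) in TfhA_4e4 and 5.29 ± 0.945 CPM (n = 6) in Tfh2_4e4, and passed in neither comparison. The classical effectors Ifit1, Ifit3, Mx1 and Rsad2 were too low to test, and their counts are given with the other untested genes.

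Of the 8 genes of ubiquitin, ISG15 and ADP-ribose modification, 3 rose against Tfh2_4e4 and 6 against Tfh5_4e4, and the others did not pass the test. Both counts include Isg15, which had to be high in TfhA_4e4 to be tested. Trim30a and Trim30d encode ubiquitin ligases, and the product of Trim30a dampens inflammatory signalling. Trim30a (chr7:104409025-104465193) was at 157, 129, 136, 155 and 169 CPM in TfhA_4e4. Its range was 10.7 to 47.0 CPM (median 18.4) in Tfh2_4e4 and 8.42 to 18.3 CPM (median 12.5) in Tfh5_4e4. The groups did not overlap, and the log2 fold changes were 2.78 ± 0.23 (adjusted p = 1.96e-13) and 3.49 ± 0.24 (adjusted p = 3.43e-16). Trim30d (chr7:104470014-104507853) was at 48.7, 34.2, 40.4, 53.9 and 47.7 CPM in TfhA_4e4, 0.396 to 13.0 CPM (median 1.68) in Tfh2_4e4 and 0.424 to 4.24 CPM (median 1.56) in Tfh5_4e4. Its log2 fold changes were 3.70 ± 0.51 (adjusted p = 9.32e-08) and 4.62 ± 0.55 (adjusted p = 1.82e-09), the first 4.98 without Tfh2_4e4 replicate 3. In that replicate Trim30a stood at 31.5% and Trim30d at 28.9% of the TfhA_4e4 mean. As near copies on 1 chromosome, the genes may share reads, and how reads matching both were counted is not given in the sources used here.

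Usp18, the protease that removes ISG15 and dampens the type I receptor, was at 9.94, 5.38, 7.45, 5.15 and 5.64 CPM in TfhA_4e4, 1.64 to 7.09 CPM in Tfh2_4e4 and 1.88 to 6.72 CPM in Tfh5_4e4. Replicates 1 and 3 of TfhA_4e4 lay above both ranges and the other 3 inside them. It passed against Tfh5_4e4 (1.01 ± 0.41, adjusted p = 0.0456) and missed against Tfh2_4e4 (0.78 ± 0.41, adjusted p = 0.140). The Tfh5_4e4 call was lost in 8 fits that each left out 1 library, with adjusted p of 0.0501 to 0.128, and with the mitochondrial covariate (adjusted p = 0.326). Parp9, an ADP-ribosyltransferase that works with the ligase DTX3L, was at 44.9, 56.7, 59.3, 55.4 and 65.8 CPM in TfhA_4e4, 44.6 to 52.9 CPM in Tfh2_4e4 and 31.3 to 47.0 CPM in Tfh5_4e4. It rose against Tfh5_4e4 (0.62 ± 0.12, adjusted p = 5.19e-05; 0.34 and adjusted p = 0.134 with the covariate) and did not pass against Tfh2_4e4 (0.22, adjusted p = 0.166). Parp9 and Dtx3l overlap on chromosome 16, and strand handling is not given in the sources used here, so reads in the overlap cannot be told apart. Isg15, singled out after its values were seen because its product gives the pathway its name, was at 1.99, 3.11, 7.12, 4.55 and 2.11 CPM in TfhA_4e4 and at most 0.610 CPM in Tfh2_4e4, with log2 fold changes of 3.65 ± 0.82 (adjusted p = 0.000385) and 4.19 ± 0.85 (adjusted p = 8.31e-05). The second was 5.21 without Tfh5_4e4 replicate 2. Parp14 passed against Tfh5_4e4 (0.56 ± 0.18, adjusted p = 0.00999; adjusted p = 0.891 with the covariate), while Trim25 and Dtx3l passed in neither comparison.

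The interferon-inducible GTPases, which attack the vacuoles of intracellular microbes, went both ways: of 6, 2 rose and 2 fell in each comparison. Gbp7, Gbp3 and Gbp2 lie close together on chromosome 3. Gbp7 was at 25.4, 16.4, 22.2, 25.4 and 26.3 CPM in TfhA_4e4, 1.10 to 5.62 CPM (median 2.33) in Tfh2_4e4 and 0.561 to 2.23 CPM (median 1.27) in Tfh5_4e4. Its groups did not overlap, and the log2 fold changes were 3.04 ± 0.36 (adjusted p = 2.19e-09) and 4.13 ± 0.38 (adjusted p = 3.03e-12). Gbp2 went the other way, at 167, 164, 193, 158 and 165 CPM in TfhA_4e4, 225, 300 and 327 CPM in Tfh2_4e4 and 202, 221 and 245 CPM in Tfh5_4e4. All TfhA_4e4 libraries lay below both groups, with log2 fold changes of -0.78 ± 0.10 (adjusted p = 3.23e-08) and -0.38 ± 0.10 (adjusted p = 0.00225). Gbp3, between them, averaged 5.57 ± 1.36 CPM (SD, n = 5) in TfhA_4e4 and 7.48 ± 2.47 CPM (n = 6) in Tfh2_4e4 and passed in neither comparison.

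The immunity-related GTPases on chromosome 11 also differed. Igtp, also known as IRGM3, was at 104, 119, 108, 103 and 103 CPM in TfhA_4e4, 55.3, 58.5 and 64.0 CPM in Tfh2_4e4 and 39.8, 48.1 and 56.8 CPM in Tfh5_4e4. It rose by 0.86 ± 0.11 (adjusted p = 4.12e-08) and 1.14 ± 0.11 (adjusted p = 2.82e-11) on the log2 scale, with no overlap. Ifi47 was at 44.5, 31.7, 37.4, 38.2 and 30.5 CPM in TfhA_4e4, below the 45.3 to 74.1 CPM of Tfh2_4e4 and the 49.2 to 70.0 CPM of Tfh5_4e4. Its log2 fold changes of -0.55 ± 0.13 (adjusted p = 0.0011) and -0.72 ± 0.13 (adjusted p = 2.29e-05) were lost with the mitochondrial covariate, at -0.26 (adjusted p = 0.381) and -0.42 (adjusted p = 0.117). Irgm1 did not pass (-0.77, adjusted p = 0.0686, against Tfh2_4e4), but did without Tfh2_4e4 replicate 3 (-0.87, adjusted p = 0.0428).

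Of the other induced genes, 4 of the 5 tested rose in both comparisons. They include Xaf1, which had to be high in TfhA_4e4 to be tested. Ifi27 was at 111, 115, 113, 111 and 95.4 CPM in TfhA_4e4, 9.39 to 35.7 CPM (median 15.2) in Tfh2_4e4 and 11 to 14.8 CPM (median 14.0) in Tfh5_4e4. The log2 fold changes were 2.65 ± 0.21 (adjusted p = 2.63e-14) and 3.01 ± 0.21 (adjusted p = 5.48e-16), with no overlap, and the highest Tfh2_4e4 value was again replicate 3, at 32.7% of the TfhA_4e4 mean. The gene body overlaps Ifi27l2a, whose own mean was 210 ± 29.7 CPM (SD, n = 5) in TfhA_4e4 and 44.7 ± 15.9 CPM (n = 6) in Tfh2_4e4. Ifi35 was at 26.0, 24.6, 20.7, 23.0 and 27.3 CPM in TfhA_4e4, 6.80 to 17.6 CPM in Tfh2_4e4 and 7.29 to 21.3 CPM in Tfh5_4e4, and rose by 1.13 ± 0.23 (adjusted p = 9.49e-05) and 0.79 ± 0.23 (adjusted p = 0.00405) on the log2 scale.

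Xaf1, an antagonist of the apoptosis inhibitor XIAP, and Ifi203, a member of the DNA-binding PYHIN family, were near 0 outside TfhA_4e4 at this label number. Xaf1 was at 8.75, 3.11, 7.95, 5.27 and 5.40 CPM in TfhA_4e4, and only 1 Tfh2_4e4 library, replicate 3, had counts, at 1.29 CPM. The fitted log2 fold change was 4.62 ± 0.89 (adjusted p = 6.36e-05). Without replicate 3, 174 counts stood against 0, at least 75.1-fold higher when 3 counts are allowed over the group. Against Tfh5_4e4 it was 174 counts against 3, a ratio of 92.1 (95% counting interval 31 to 451), with a fitted log2 fold change of 6.23 ± 1.03 (adjusted p = 3.93e-06) that became 7.15 without Tfh5_4e4 replicate 3. Ifi203 was at 1.19, 8.90, 10.1, 4.67 and 4.46 CPM in TfhA_4e4 and at most 0.820 CPM in Tfh2_4e4 and 1.59 CPM in Tfh5_4e4. Its log2 fold changes were 5.15 ± 0.91 (adjusted p = 1.35e-05) and 4.24 ± 0.86 (adjusted p = 7.58e-05). The first rests on counts in replicate 3 alone, without which 168 counts stood against 0, at least 72.5-fold higher. The second was 5.95 without Tfh5_4e4 replicate 6. Its relative Ifi209 passed in neither comparison, at 1.35 ± 1.44 CPM (SD, n = 5) in TfhA_4e4.

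**Figure D3:**
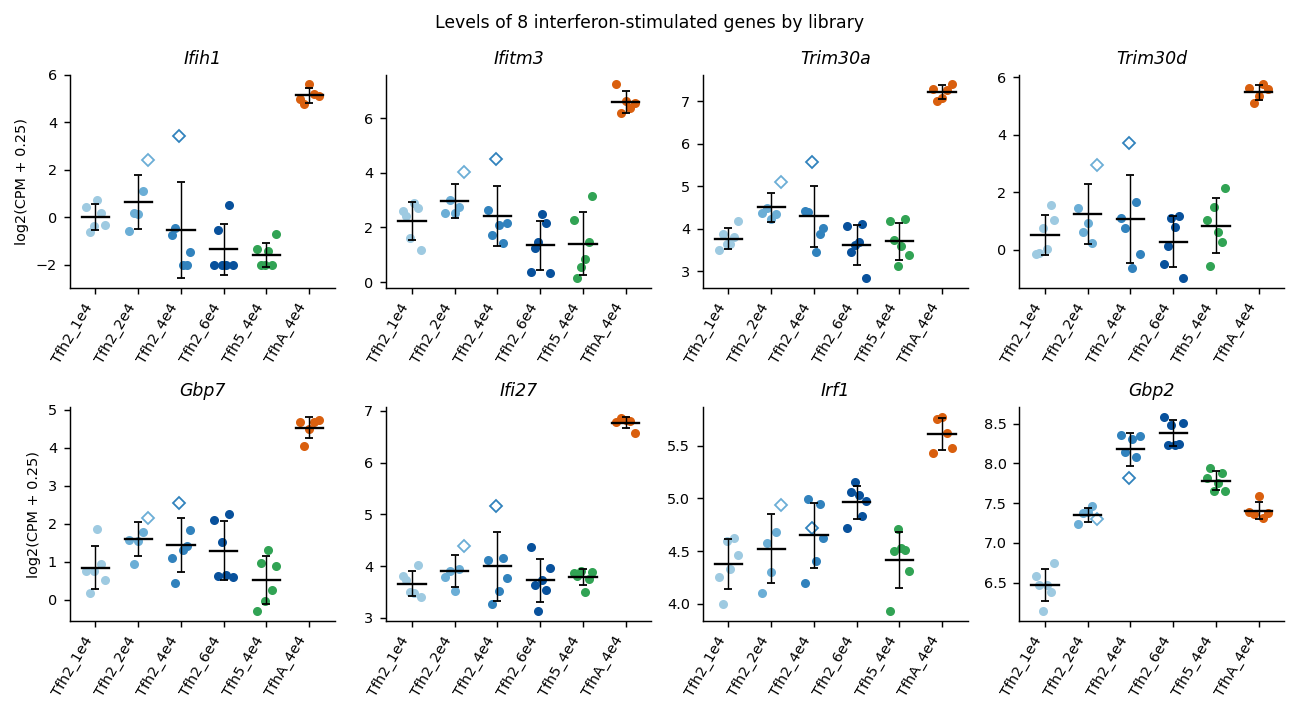
Levels of 8 genes in each library by group, as log2 of the TMM-scaled CPM plus 0.25, with the group's mean (line) and SD (bar) on that scale; open diamonds are Tfh2_4e4 replicate 3 and Tfh2_2e4 replicate 6. Ifih1, Ifitm3, Trim30a, Trim30d, Gbp7 and Ifi27 are high in all 5 TfhA_4e4 libraries and highest of their own group in the diamonds, Irf1 is highest in TfhA_4e4, and Gbp2 is highest in Tfh2_4e4 and Tfh2_6e4.

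The 9 untested genes were sparse in every group and are described by their summed counts, with 95% intervals that cover counting error only. Ifi44 had 59 counts over the TfhA_4e4 libraries, 3 in Tfh2_4e4 (ratio 31.3, interval 10.2 to 156) and 1 in Tfh5_4e4 (ratio 93.7, interval 16.2 to 3761). Mx1, annotated in RefSeq as a transcribed pseudogene, had 58 counts against 7 in Tfh2_4e4 (ratio 13.2, interval 6.02 to 34.3) and 7 in Tfh5_4e4, and all 7 in Tfh2_4e4 lay in replicate 3. Ifit1, which binds RNA with foreign caps, had 44 counts against 1 in Tfh2_4e4 (ratio 70.1, interval 11.9 to 2832) and 0 in Tfh5_4e4 (at least 23.3-fold higher). Per library, Ifit1 reached only 0.621 to 2.82 CPM in TfhA_4e4. Rtp4 had 16 counts against 1 in Tfh2_4e4 (ratio 25.5, interval 3.96 to 1069), and Rsad2, the radical enzyme viperin, had 8 against 0 (at least 4.25-fold higher). Oasl2 had 10 against 2, Ifit3 had 9 against 2 in Tfh2_4e4 and 9 in Tfh5_4e4, and Oas1a and Oasl1 stayed at 3 counts or fewer in these 3 groups. When no filter on low counts was used, Ifi44, Ifit1 and Mx1 were called higher in both TfhA_4e4 comparisons, and Rsad2 in the one with Tfh2_4e4.

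Between Tfh5_4e4 and Tfh2_4e4 few interferon-stimulated genes differed. Of the 31, edgeR called 0 higher and 3 lower in Tfh5_4e4, where 1.41% of all genes were higher and 1.70% lower (3.11% in either direction). At an unadjusted p under 0.05 it was 0 higher and 9 lower. The share of all genes at that unadjusted level was not counted, so the shares above are no baseline for it. DESeq2 also called 0 higher and 3 lower. The median log2 fold change over the 31 was -0.24, beside -0.01 for all genes tested. It was -0.18 without Tfh2_4e4 replicate 3, and -0.11 over 33 tested genes without both libraries that stood apart. Gbp2 fell by 0.40 on the log2 scale (SE 0.10, adjusted p = 0.0107), from a mean of 291 ± 40.03 CPM (SD, n = 6) to 221 ± 17.7 CPM (n = 6), with overlapping libraries. Parp9 fell by 0.40 (SE 0.12, adjusted p = 0.0433; 0.0730 without Tfh2_4e4 replicate 3). The Ifih1 value of -4.24 ± 1.08 (adjusted p = 0.0184) came from Tfh2_4e4 replicate 3, and without it was -0.96 (adjusted p = 0.808). None of the 3 genes separated the groups without overlap, where 52.1% of the 353 genes called among all tested did.

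The 4 Tfh2 groups differ in their label number, from 1e4 to 6e4, and the fit gave a slope per doubling of that number. Samhd1, Gbp2, Dhx58, Trim25, Igtp and Dtx3l rose with it, while Ifi47, Ifi35 and, at low counts, Ifi203 and Xaf1 fell. In all, edgeR called 12 of the 31 genes rising and 4 falling, where 24.1% of all genes tested rose and 22.8% fell (46.9% in either direction). Without the 4 genes that entered through TfhA_4e4, 12 of 27 rose and 3 fell. The median slope was 0.14 on the log2 scale. The TfhA_4e4 comparisons share the Tfh2_4e4 libraries with this slope, so directions in the 2 analyses are given side by side only.

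The steepest of the abundant genes were Samhd1 and Gbp2. Samhd1 was at 96.5, 104 and 112 CPM (lowest, median, highest) in Tfh2_1e4 and at 148, 175, 164, 205 and 179 CPM in Tfh2_2e4. It was at 281, 321 and 345 CPM in Tfh2_4e4 and 366, 398 and 427 CPM in Tfh2_6e4. No neighbouring groups overlapped, the slope was 0.77 ± 0.03 (adjusted p = 6.04e-25), and each step passed, the last with 0.34 ± 0.08 (adjusted p = 0.0154). That last call was lost without a filter (adjusted p = 0.0638), with only the groups compared in the fit (0.0708) and without Tfh2_4e4 replicate 1 (0.0513). Gbp2 was at 70.2, 88.4 and 107 CPM in Tfh2_1e4, 151, 166, 168, 177 and 157 CPM in Tfh2_2e4, 225, 300 and 327 CPM in Tfh2_4e4 and 299, 331 and 384 CPM in Tfh2_6e4. Its slope was 0.76 ± 0.04 (adjusted p = 7.57e-22), and the 4e4 and 6e4 libraries overlapped.

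Dhx58 rose from 0.223, 0.631 and 0.981 CPM in Tfh2_1e4 to 4.74, 6.32 and 7.36 CPM in Tfh2_6e4, a slope of 1.33 ± 0.15 (adjusted p = 6.95e-10). The 2e4 libraries read 1.65, 0.640, 0.562, 3.21 and 0.556 CPM and overlapped the 1e4 group. Igtp rose from 23.1, 28.3 and 38.4 CPM in Tfh2_1e4 to 58.2, 62.0 and 64.6 CPM in Tfh2_6e4 (slope 0.43 ± 0.04, adjusted p = 3.14e-12), with 34.8, 41.5, 42.7, 48.8 and 32.4 CPM in Tfh2_2e4. Trim25, a ligase that activates the sensor RIG-I, rose from 13.8, 20.6 and 26.7 CPM to 38.1, 46.0 and 52.1 CPM (slope 0.48 ± 0.05, adjusted p = 7.26e-12). Dtx3l rose from 57.6, 68.6 and 77.3 CPM to 130, 141 and 154 CPM (slope 0.44 ± 0.04, adjusted p = 1.86e-14), although Trim25 and Dtx3l passed in neither TfhA_4e4 comparison. Irf9 (0.22 ± 0.05, adjusted p = 8.18e-05), Irf1 (0.21 ± 0.05, adjusted p = 0.00109) and Stat2 (0.20 ± 0.06, adjusted p = 0.00331) had small slopes, as did Parp9 (0.28 ± 0.04, adjusted p = 3.41e-07). Usp18 (0.62 ± 0.15, adjusted p = 0.000542) and Isg20 (0.77 ± 0.29, adjusted p = 0.0257) also rose, and the Isg20 call was lost without any 1 of 5 libraries (Tfh2_1e4 replicates 1, 3 and 6, Tfh2_4e4 replicate 6 and Tfh2_6e4 replicate 1), with adjusted p of 0.0505 to 0.0626.

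Ifi47 fell, from 91.7, 96.8 and 115 CPM in Tfh2_1e4 through 97.9, 81.1, 65.5, 63.9 and 67.1 CPM in Tfh2_2e4 to 39.9, 45.1 and 55.6 CPM in Tfh2_6e4 (slope -0.44 ± 0.04, adjusted p = 1.68e-11). Ifi35 had a slope of -0.24 ± 0.08 (adjusted p = 0.0113). Ifi203 was at 1.25, 3.29 and 6.02 CPM in Tfh2_1e4, at 2.20, 0.640, 0.141, 0 and 1.95 CPM in Tfh2_2e4 and at 1 count in all of Tfh2_6e4. Its fitted slope of -2.49 ± 0.37 (adjusted p = 3.55e-07) depends on the prior count, as does that of Xaf1 (-1.42 ± 0.49, adjusted p = 0.0152), which had 0 counts in Tfh2_6e4. For Xaf1 the slope was -2.03 without Tfh2_4e4 replicate 3.

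Several genes with large TfhA_4e4 steps had no called slope. Trim30a (-0.01 ± 0.08), Trim30d (0.01 ± 0.23), Gbp7 (0.22 ± 0.13) and Ifi27 (0.08 ± 0.07) did not pass. Neither did Ifih1 (-0.44 ± 0.34, adjusted p = 0.303) and Ifitm3 (-0.26 ± 0.17, adjusted p = 0.208), but both did without Tfh2_4e4 replicate 3, at -0.96 (adjusted p = 0.00136) and -0.41 (adjusted p = 0.0162).

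**Figure D4:**
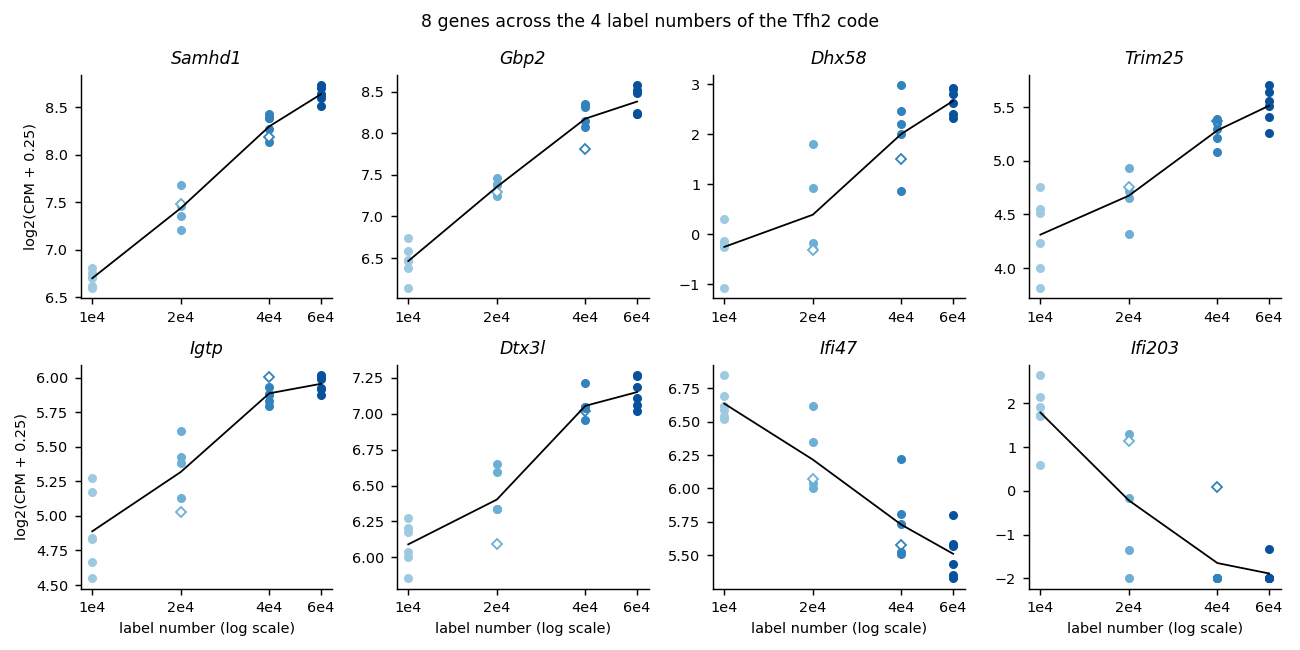
Levels of 8 genes in the Tfh2 libraries, as log2 of the TMM-scaled CPM plus 0.25, against the label number on a log axis, with a line through the group means and open diamonds for Tfh2_4e4 replicate 3 and Tfh2_2e4 replicate 6. Samhd1, Gbp2, Dhx58, Trim25, Igtp and Dtx3l climb and Ifi47 and Ifi203 descend.

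By single steps, 5 of the 31 genes were higher and 0 lower in Tfh2_2e4 than in Tfh2_1e4, where 4.06% of all genes were higher and 1.20% lower (5.26% in either direction). At an unadjusted p under 0.05 edgeR gave 10 higher and 2 lower, a level at which the share of all genes was not counted. DESeq2 called 5 higher and 1 lower. The genes were Gbp2 (0.88 ± 0.10, adjusted p = 1.71e-08), Samhd1 (0.75 ± 0.08, adjusted p = 7.09e-09), Trim30a (0.77 ± 0.24, adjusted p = 0.0441), Igtp (0.42 ± 0.12, adjusted p = 0.0228) and Parp9 (0.39 ± 0.12, adjusted p = 0.0472). Trim30a read 20.5, 22, 18.4, 20.2 and 34 CPM in Tfh2_2e4, and without replicate 6, which held the 34 CPM, the value was 0.57 (adjusted p = 0.234). With the mitochondrial share as a covariate the Trim30a and Parp9 calls were lost. Leaving out each library of this step in turn gave 2 to 4 genes higher. From Tfh2_2e4 to Tfh2_4e4, 7 genes rose and 1, Ifi47, fell, where 7.59% of all genes rose and 5.40% fell (13.0% in either direction). Samhd1 (0.86 ± 0.08, adjusted p = 3.88e-10), Gbp2 (0.83 ± 0.10, adjusted p = 7.2e-08) and Dtx3l (0.64 ± 0.10, adjusted p = 8.3e-06) had the smallest p-values of the 7. Without Tfh2_4e4 replicate 3, Ifih1, Ifi203, Xaf1 and Ifi35 were called lower too. From Tfh2_4e4 to Tfh2_6e4 Samhd1 alone was called, 1 higher and 0 lower of the 31, where 0.616% of all genes were higher and 0.863% lower (1.48% in either direction). At an unadjusted p under 0.05 it was 3 higher and 7 lower, again without a count over all genes at that level. DESeq2 called 1 higher and 0 lower.

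The interferon genes on the ligand list were absent or barely counted, and interferon genes outside that list were not read. None of 11 listed ligand genes had enough counts to test, and Ifna1, Ifna2, Ifna4, Ifna5, Ifnb1, Ifne, Ifnl2 and Ifnl3 were at 0 throughout. In TfhA_4e4 a level of up to 0.105 CPM is compatible with a count of 0. Ifng had 9, 5, 1, 0, 3 and 0 counts in Tfh2_1e4, Tfh2_2e4, Tfh2_4e4, Tfh2_6e4, Tfh5_4e4 and TfhA_4e4. Ifnk had 1, 7, 0, 3, 1 and 3 counts, and Ifnz had 0, 3, 0, 10, 0 and 0.

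Of 6 receptor genes 5 were tested, and 1 was higher and 3 lower in TfhA_4e4 in each of its comparisons. Of all genes tested, 32.8% were called in either direction against Tfh2_4e4 and 39.5% against Tfh5_4e4. Receptor and other pathway genes were not read with the mitochondrial covariate or with libraries left out. Ifnar1 averaged 28.0 CPM in TfhA_4e4, 16.6 CPM in Tfh2_4e4 and 15.1 CPM in Tfh5_4e4, with log2 fold changes of 0.75 ± 0.16 (adjusted p = 0.000167) and 0.89 (adjusted p = 1.02e-05). Its partner Ifnar2 was slightly lower in TfhA_4e4, by -0.35 (adjusted p = 0.0305) and -0.42 (adjusted p = 0.0069). The interferon-γ receptor genes fell by more. Ifngr1 averaged 60.6 CPM in TfhA_4e4, 118 CPM in Tfh2_4e4 and 91.4 CPM in Tfh5_4e4 (-0.96, adjusted p = 3.79e-09, and -0.59, adjusted p = 4.34e-05), and Ifngr2 averaged 10.5, 25.3 and 32.3 CPM (-1.29, adjusted p = 5.91e-07, and -1.64, adjusted p = 1.75e-09). In Tfh5_4e4 against Tfh2_4e4, Ifngr1 fell by 0.37 (adjusted p = 0.0416). Within Tfh2, Ifngr1 rose with the label number, from a mean of 49.3 CPM to 145 CPM (slope 0.63 ± 0.04, adjusted p = 1.26e-17), and Ifnar2 rose with a slope of 0.23 (adjusted p = 1.56e-05). Il10rb, shared with interferon-λ signalling, was not called in the TfhA_4e4 comparisons, and Ifnlr1 had 5 counts in Tfh2_4e4 and 4 in TfhA_4e4.

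Of 8 kinases and signal factors outside the list, all tested, only Irf8 and Jak1 were called in TfhA_4e4, lower in each comparison. For these genes and the 2 lists that follow, 32.8% of all genes were called against Tfh2_4e4 and 39.5% against Tfh5_4e4. Irf8 averaged 43.4 CPM there and 152 CPM in Tfh2_4e4 (-1.81 ± 0.14, adjusted p = 1.14e-14; -2.09 against Tfh5_4e4), and Jak1 fell by 0.52 (adjusted p = 3.63e-06) and 0.56. Of 8 inhibitors of the pathway, Ptpn1 (0.71) and Ptpn6 (0.55) rose and Irf2bp2 (-1.04) and Pias1 (-0.88) fell against Tfh2_4e4, and Socs1, the feedback inhibitor of Janus kinases, also fell against Tfh5_4e4 (-0.77, adjusted p = 0.0305). Of 13 genes of nucleic acid sensing upstream of interferon, 10 were tested. Ikbke (0.86) and Ddx58 (0.84), which encodes RIG-I, rose against Tfh2_4e4, while Ticam1 (-1.24), Traf3 (-0.76) and Myd88 (-0.35) fell.

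**Figure D5:**
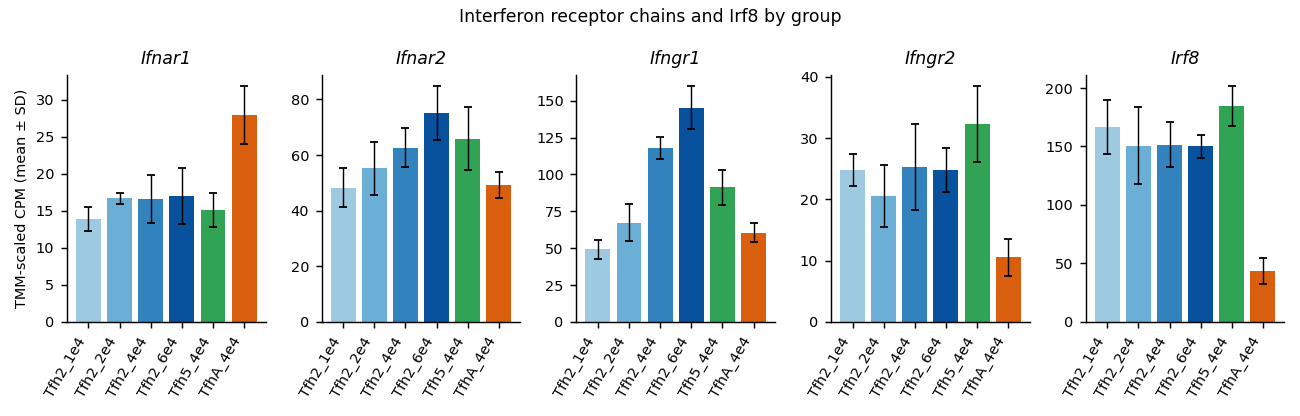
Mean and SD of TMM-scaled CPM in each group for the receptor genes Ifnar1, Ifnar2, Ifngr1 and Ifngr2 and the factor Irf8, with bars starting at 0. In TfhA_4e4 Ifnar1 is at its highest mean (28.0 CPM), and Ifngr2 (10.5 CPM) and Irf8 (43.4 CPM) are at their lowest.

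Markers of other cell types were read in the same libraries. The CD8 T cell markers summed to 6.11 to 15.5 CPM in TfhA_4e4 and 3.84 to 13.5 CPM elsewhere, nearly all from Cd8b1. Natural killer cell markers summed to 6.21 to 11.6 CPM in TfhA_4e4 and 0 to 4.09 CPM elsewhere. Klrk1 gave most of the TfhA_4e4 sum (mean 6.48 CPM, at most 0.547 CPM in other groups' means). Eomes averaged 0.916 CPM in TfhA_4e4 and at most 0.167 CPM in other groups' means. Klrb1c had 7 counts in TfhA_4e4, with 4 of 5 libraries at 0, and 0 counts in the other groups. Klre1 averaged 1.65 CPM in TfhA_4e4 and 2.02 CPM in Tfh2_4e4, and Ncr1 and Klra8 were at 0 in every library. Macrophage and dendritic cell markers summed to 34.5 to 68.2 CPM in TfhA_4e4, 61.2 to 83.4 CPM in Tfh2_4e4 and 30.6 to 50.2 CPM in Tfh5_4e4. Within Tfh2 that sum went from 1.97 to 10.5 CPM at 1e4 to 84.8 to 104 CPM at 6e4, in the same order as the rising genes, and was carried by H2-Ab1 (means of 3.46, 28.6, 73.9 and 91.6 CPM). The macrophage gene Lyz2 was at or near 0. The plasmacytoid dendritic cell markers Siglech and Klk1 were at 0 in every library, and the summed level of that list, 19.5 to 41.8 CPM in TfhA_4e4 and 40.3 to 135 CPM elsewhere, was carried by Tcf4, which T cells also express. The part of these cell types, and of the lower CD4 T cell marker sum in TfhA_4e4, in the results was not tested.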

How the data were processed

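RNA was measured by 3′ mRNA sequencing in 34 libraries of 6 groups, grouped by their titles. The deposited values were whole-number counts of reads per gene identifier, made by the authors with STAR 2.7.2b and featureCounts 1.6.4 on mm10, per the submitters' processing notes. Strand setting and multi-mapping reads are not given in the sources used here. Symbols, coordinates and promoters came from RefSeq (GRCm38.p6). Identifiers without a symbol numbered 1904 of 27179 and held 48.8% of all counts, of which identifiers 100861531 and 19791 took 48.3%. They stayed in the library sizes, so a CPM is relative to all counts after TMM scaling.

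edgeR 4.0.16 (R 4.3.3) kept genes with about 10 counts in at least 5 libraries (11357 genes, 31 of the 40), scaled by TMM and fitted all 34 libraries in 6 groups by the quasi-likelihood test, with Benjamini-Hochberg adjustment over all genes and a threshold of 0.05. CPM are TMM-scaled. Depth ran from 4481509 to 9934245 counts. The code was tested on simulated data. Alternatives were DESeq2 1.42.0, RLE size factors, no filter, a replicate block, the range of replicate numbers, only the groups compared, the mitochondrial rRNA share, leaving out 2 libraries that stood apart, and leaving out each library. Count ratios and their exact 95% intervals, and the floor of 3 counts, cover counting error only, since the reads carry no molecular identifiers here.

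The genes, marker lists and pathway lists were chosen with earlier results of these data known. Named by rule were, per role, up to 4 called genes of largest fold change whose log2 CPM averaged 0 or more, and per pathway list up to 5 of them plus all ligands and receptors. Libraries of Tfh2_2e4 replicate 3 and TfhA_4e4 replicate 4 were not analysed here.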

Additional observations from a re-analysis of the deposited data

Results flagged for a closer look

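Within groups of 5 or 6 libraries, a library was singled out where its distance to the nearest other library took up more of the group's range than Dixon's limit. This was done for 151 sets of a gene in a group, and 21 stood out. Chance alone singles out about 1 in 20 sets. Of the 21, 8 lay in Tfh2_4e4 replicate 3 or Tfh2_2e4 replicate 6.

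In Tfh2_4e4, replicate 3 was highest for Ifih1 (10.4 CPM), Ifitm3 (22.6 CPM), Trim30a (47.0 CPM), Trim30d (13.0 CPM) and Ifi27 (35.7 CPM). In Tfh2_2e4, replicate 6 was highest for Ifitm3 (16.1 CPM), Trim30a (34 CPM) and Trim30d (7.51 CPM). These are genes with large TfhA_4e4 steps, and the same libraries stood apart in genes outside the list. The cause was not tested.

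The other values were scattered. Replicate 1 of Tfh2_4e4 was highest for Dtx3l (148 CPM) and Ifi47 (74.1 CPM), and replicate 5 of Tfh2_2e4 for Usp18 (4.92 CPM). In Tfh2_1e4, replicate 4 was highest for Gbp7 (3.38 CPM) and replicate 3 lowest for Zbp1 (1.87 CPM). Parp9 was highest in Tfh2_6e4 replicate 6 (45.2 CPM). Tfh5_4e4 had high values of Dhx58 in replicate 4 (4.11 CPM), Eif2ak2 in replicate 3 (6.95 CPM) and Usp18 in replicate 6 (6.72 CPM). In TfhA_4e4, Gbp2 was highest in replicate 3 (193 CPM), Igtp in replicate 2 (119 CPM) and Irgm1 in replicate 6 (6.81 CPM), and Ifi27 was lowest in replicate 6 (95.4 CPM).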

How the results depend on the processing

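None of the 76 calls on single interferon-stimulated genes reversed its direction under an alternative. The median of the 31 genes in Tfh2_6e4 against Tfh2_4e4, where 1 gene was called, was -0.13 and became 0.06 without Tfh2_4e4 replicate 3. The counts for TfhA_4e4 against Tfh2_4e4 and Tfh5_4e4 stayed within 1.5 times under each alternative. The other counts below moved, and the cause was not tested. For Tfh5_4e4 against Tfh2_4e4, 1 interferon-stimulated gene in place of 3 was lower with only the groups compared in the fit, and also 1 without both libraries that stood apart. Leaving out single libraries gave 1 (without Tfh2_4e4 replicate 3) to 4 (without Tfh5_4e4 replicate 6). For the slope, leaving out single libraries gave 4 to 7 falling genes, with 7 without Tfh2_4e4 replicate 3. For Tfh2_2e4 against Tfh2_1e4, 3 genes in place of 5 were higher with only the groups compared, 1 in place of 0 was lower by DESeq2 and with the range of replicate numbers, and single libraries left out gave 2 to 4 higher and 0 to 1 lower. For Tfh2_4e4 against Tfh2_2e4, 2 genes in place of 1 were lower without a filter and 4 without both libraries that stood apart, and single libraries left out gave 1 to 5, with 5 without Tfh2_4e4 replicate 3. For Tfh2_6e4 against Tfh2_4e4, the count over all genes was 168, but 278 by DESeq2, 303 with the range of replicate numbers, 74 with only the groups compared, 90 without both libraries that stood apart and 55 to 269 with single libraries left out. There 0 genes of the list in place of 1 were higher without a filter and with only the groups compared, 4 in place of 0 were lower without a filter, and single libraries left out gave 0 to 1 higher and 0 to 2 lower.

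The replicate numbers were checked for pairing. The correlations were taken over the genes tested, on each library's deviation in log2 CPM from its group mean. Libraries of the same number in different groups had a mean correlation of 0.0494 (80 pairs, 15 above 0.1). Libraries with unlike numbers averaged 0.0288 where both lay in 1 to 3 or both in 4 to 6 (160 pairs, 15 above 0.1), and -0.0354 otherwise (241 pairs, 2 above 0.1). For 16 of 34 libraries the highest correlation was with a library of the same number. That is a hint from the data, but pairing was taken as given only if every pair was above 0.1, which did not hold, so the fit reported has no block. With a replicate block, the count over all genes was 584 in place of 353 for Tfh5_4e4 against Tfh2_4e4 and 381 in place of 168 for Tfh2_6e4 against Tfh2_4e4. Among interferon-stimulated genes the block gave 1 lower in Tfh2_2e4 than Tfh2_1e4, 2 lower in Tfh2_4e4 than Tfh2_2e4 and 1 lower in Tfh2_6e4 than Tfh2_4e4. Of 76 single calls, 75 held with the block, and the Usp18 call against Tfh5_4e4 was lost (adjusted p = 0.0507, edgeR).

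The mitochondrial share as a covariate lost 13 of 76 calls, among them Parp9 (0.34, adjusted p = 0.0973) and Trim30a (0.71, adjusted p = 0.0854) in Tfh2_2e4 against Tfh2_1e4. As this share separates TfhA_4e4 from all other groups, such a fit compares it with few shared values. For the 9 untested genes, and for Isg15, Xaf1 and Ifi203 outside TfhA_4e4, depth sets the limit, since a library there holds a handful of counts or none.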

Other observations

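A longer list of 81 entries for further interferon-induced genes was read in the same fit. Of these, 78 gave a gene with a row of its own outside the 40, after leaving out Pyhin1, which is Ifi209 of the 40, and 1 repeated gene, and 57 were tested by edgeR. In TfhA_4e4, 38 of the 57 were higher and 2 lower than in Tfh2_4e4, where 15.5% of all genes were higher and 17.4% lower, and 38 were higher and 1 lower than in Tfh5_4e4, where 19.1% were higher and 20.4% lower. Median log2 fold changes were 0.88 and 1.10. Which of the 57 passed the filter on low counts only through TfhA_4e4 libraries was not checked, and such genes had to be high there. The 57 were not read with the mitochondrial covariate or with libraries left out. The list was also chosen with earlier results of these data known, so the counts are no independent test. Mndal, a PYHIN gene like Ifi203, averaged 27.2 ± 2.18 CPM (SD, n = 5) in TfhA_4e4, 1.01 ± 2.32 CPM (n = 6) in Tfh2_4e4 and 0.509 ± 1.06 CPM (n = 6) in Tfh5_4e4. Ddx60, Gbp4, Gbp8 and Oas3 also had large steps, of 4.28, 3.92, 3.73 and 3.39 on the log2 scale against Tfh2_4e4. Gbp8 was at 15.1 to 19.1 CPM in TfhA_4e4 and at most 5.51 CPM in Tfh2_4e4. Oas3 averaged 21.2 ± 3.95 CPM (SD, n = 5) in TfhA_4e4, although Oas1a, Oasl1 and Oasl2 were nearly absent. The genes that fell against Tfh2_4e4 were Tgtp2 and Gbp5, and Daxx fell against Tfh5_4e4. Gbp5 averaged 19.3 ± 3.08 CPM (SD, n = 5) in TfhA_4e4 and 27.8 ± 9.57 CPM (n = 6) in Tfh2_4e4, so guanylate-binding genes went both ways here as in the shorter list.

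In Tfh5_4e4 against Tfh2_4e4, edgeR called 4 of the 57 lower (Epsti1, Tap1, Ly6a and Ly6e), beside 1.70% of all genes, and the other 53 did not pass. Along the Tfh2 label number, 15 of the 57 rose and 11 fell, beside 24.1% and 22.8% of all genes, with a median slope of 0.00 on the log2 scale.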
